A study of Mus musculus with 25 samples.

Results

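The microRNAs miR-10a-5p and miR-10b-5p were followed across 25 arrays of mouse mammary tissue. They were found by name (mmu-miR-10a-5p and mmu-miR-10b-5p): both are listed among the 1122 mouse miRNAs of the array, and 2 of 2 were present with 2 probes each. The arrays came from female FVB mice. The normal group was 2 pools of wild-type mammary gland, of which pool 1 came from multiparous and pool 2 from nulliparous mice. The number of mice in a pool is not given in the sources used here. Tumours fell into 3 groups. The 7 Met tumours arose in MMTV-Met mice, which carry a Met receptor transgene under the mouse mammary tumour virus promoter. The 8 MetTrp53 tumours came from MMTV-Met;Trp53fl/+ mice, in which 1 Trp53 allele can be deleted by Cre. The 8 Trp53 tumours carried the floxed Trp53 allele and Cre without the Met transgene. Cre is named in the study's design, but the promoter that drives it is not given in the sources used here. Ages are likewise not given. Nothing states that every tumour came from a different mouse, and 2 pairs of Trp53 tumours share an identification number in their titles (tumours 2 and 3, and tumours 4 and 8). The p-values therefore measure the spread between these samples.

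MicroRNAs are short RNAs that guide silencing complexes to messenger RNAs, mainly through the seed, the bases near the 5′ end. The genes of miR-10a and miR-10b lie inside Hox clusters, the arrays of homeobox transcription factor genes that pattern the body axis, and both miRNAs are known to act on Hox messages. In breast cancer research miR-10b is known from work on invasion and metastasis of cancer cells, and miR-10a is studied in endothelium and haematopoiesis.

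The mature sequences are given first, because the 2 miRNAs are near copies of each other. They are shown 5′ to 3′ from RefSeq (GRCm38.p6), with the seed (bases 2 to 8) in capitals:
miR-10a-5p: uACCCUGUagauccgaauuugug
miR-10b-5p: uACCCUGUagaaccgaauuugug
The sequences share 22 of 23 bases and the whole seed, and they differ by the substitution U12A, counted from the 5′ end with the base of miR-10a-5p first. In GRCm38.p6 the mature miR-10a-5p is encoded at chr11:96317186-96317208 on the plus strand by Mir10a. This gene lies within the annotated span of Hoxb3, between Hoxb5 and Hoxb4. The mature miR-10b-5p is encoded at chr2:74726074-74726096 on the plus strand by Mir10b, which lies within the spans of Hoxd3 and Hoxd4. The closest relatives in sequence belong to the same wider family but have another seed:
miR-99a-5p: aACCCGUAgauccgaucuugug
miR-99b-5p: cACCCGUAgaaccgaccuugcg
miR-100-5p: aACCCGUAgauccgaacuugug
The longest run of bases that miR-10a-5p shares with a relative is 11 (miR-100-5p), and for miR-10b-5p it is 10 (miR-99b-5p). How much of either member binds the other's probes was not tested.

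Each array detected 220 to 334 of the mouse miRNAs, and the number of arrays limits the precision of every comparison. The percentile used to scale an array ranged from 278.9 to 908.9 intensity units. Here levels are log2 of the processed signal after division by a common percentile of each array. A floor fixed the lowest possible level at 3.54. Differences between levels are log2 differences, so that 1 unit is a doubling. Of the mouse miRNAs, 330 passed the detection filter. After 1 miRNA that lay at the floor on every array was left out, 329 were tested. The median difference between tumours and pools was 0.14 over all tested miRNAs and 0.34 over those detected on all arrays, and both members moved against that shift. Because a level depends on the probe, levels of miR-10a-5p and miR-10b-5p are not set against each other. Only their changes are.

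Tumours held less miR-10b-5p than normal mammary gland. The level was 7.66 in pool 1 and 7.76 in pool 2. In the 23 tumours the lowest level was 3.54, the median 5.33 and the highest 7.01, so that all 23 lay below both pools. There are only 2 pools, and the share of all tested miRNAs separated in this way was not counted. Counts of tumours below both pools, here and in what follows, therefore only describe the levels. The mean over the 3 genotypes was 2.42 log2 units below normal (log2 difference -2.42, SE 0.73, 95% confidence interval -3.92 to -0.91, limma adjusted p = 0.0274), a 5.35-fold difference. With normexp background correction the log2 difference was smaller, -1.32 (limma adjusted p = 0.0127). In this comparison 12.8 percent of the tested miRNAs were called in either direction, and 7.9 percent were called as lower. Within slide 1 the log2 difference between 4 tumours and pool 1 was -2.40, and within slide 3 that between 4 tumours and pool 2 was -2.43. The difference stayed as large but lost its call without pool 1 (-2.47, adjusted p = 0.258) or pool 2 (-2.37, adjusted p = 0.231), where the remaining pool is assumed to vary like the other groups. The same held with slide (-2.47, adjusted p = 0.0597) or scan date (-2.35, adjusted p = 0.0578) as a block, and with summed signals (-2.74, adjusted p = 0.0707).

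Each genotype showed the same direction for miR-10b-5p. In Met tumours the lowest level was 3.54, the median 4.18 and the highest 7.01, and 7 of 7 lay below both pools. Met tumours 1 and 3 sat at the floor, so the true mean of this genotype may be lower than measured. The log2 difference from normal was -2.81 (SE 0.79, limma adjusted p = 0.0206), with 12.2 percent of miRNAs called in either direction and 8.21 percent as lower. In MetTrp53 tumours the level ran from 4.49 through a median of 5.37 to 6.33, below both pools in 8 of 8. The log2 difference was -2.38 (SE 0.78, limma adjusted p = 0.0441), with 14.6 percent called in either direction and 8.21 percent as lower. In Trp53 tumours the level ran from 4.78 through a median of 5.50 to 6.78, again below both pools in 8 of 8. There the log2 difference of -2.07 (SE 0.78) did not pass (limma adjusted p = 0.0915, with 12.5 percent of miRNAs called in either direction and 7.6 percent as lower). It passed without Met tumour 5 (adjusted p = 0.0490), which enters only through the shared spread. With normexp the 3 log2 differences were -1.42, -1.36 and -1.19, in the order Met, MetTrp53 and Trp53. All of these comparisons share the same 2 pools.

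The calls by genotype depended on single arrays. The Met call was lost without pool 1 (adjusted p = 0.189) or pool 2 (adjusted p = 0.170). The MetTrp53 call was lost without pool 1 (adjusted p = 0.255) or pool 2 (adjusted p = 0.250). It was also lost without any one of MetTrp53 tumours 1, 3, 5, 7 and 8 (adjusted p-values of 0.0508 to 0.0669) and without Trp53 tumour 3, which enters only through the shared spread.

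Levels of miR-10a-5p also lay below normal in most tumours, but no difference passed the test. The level was 7.14 in pool 1 and 7.13 in pool 2. In the tumours the lowest level was 4.06, the median 5.70 and the highest 7.31. In 22 of 23 tumours it was below both pools, and Met tumour 2, a spindloid tumour, was the exception with the highest level of all arrays. The log2 difference of tumours from normal was -1.43 (SE 0.62, 95% confidence interval -2.71 to -0.15, limma adjusted p = 0.155), and -0.70 with normexp. By genotype it was -1.90 in Met (SE 0.67, limma adjusted p = 0.0678), -1.23 in MetTrp53 (SE 0.66, limma adjusted p = 0.239) and -1.16 in Trp53 tumours (SE 0.66, limma adjusted p = 0.308). Within slides 1 and 3 the tumours were 1.33 and 1.40 log2 units below their pool (log2 differences -1.33 and -1.40). The Met difference passed without Met tumour 2 (-2.25, adjusted p = 0.00974) and without Met tumour 5 (-2.13, adjusted p = 0.0289), the 2 Met tumours with the highest levels.

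**Figure D1:**
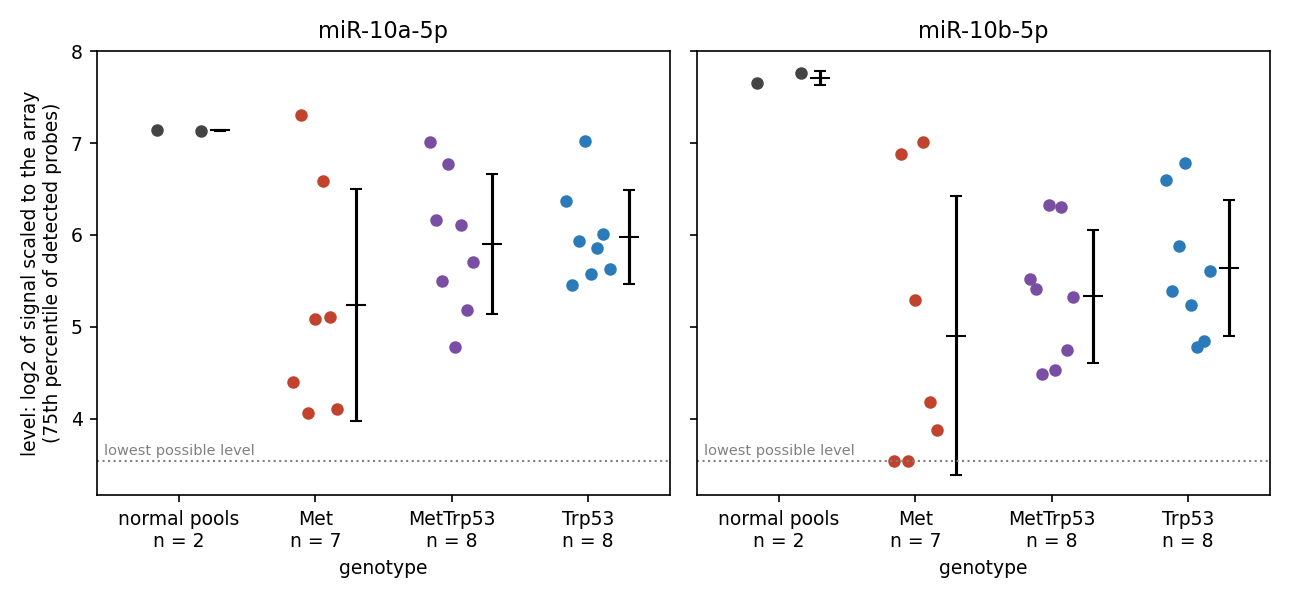
Levels of miR-10a-5p (left) and miR-10b-5p (right) on every array, as log2 scaled signal, by genotype. Points are arrays, bars to their right give the mean and SD, and the dotted line is the lowest possible level of 3.54; all 23 tumours lie below both pools for miR-10b-5p and 22 of 23 for miR-10a-5p.

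Markers of some other tissues also differed between tumours and pools, while those of others were not called. All 5 muscle miRNAs tested were called lower in tumours, with a median log2 difference of -6.90. Their summed log2 level was 13.33 to 13.83 in the pools against 5.86 to 10.998 in the tumours. The value of 5.86 is that of all 5 at the floor, so the muscle differences may be larger than measured. Of the 5, miR-499-5p was detected on only 2 arrays and passed the detection filter through the pools alone. With detection on 7 arrays and levels well above background in both pools, miR-206-3p also passed through the pools. The filter therefore favoured the lower direction for both. Of 3 adipose miRNAs 2 were called lower (median -2.09, summed levels 9.92 to 11.10 in pools and 6.95 to 9.72 in tumours). Both endothelial miRNAs tested were called lower, miR-126-3p at -1.69 (SE 0.54, limma adjusted p = 0.0404) and miR-126-5p at -0.40. The summed endothelial level was 10.69 to 10.99 in pools and 7.51 to 10.40 in tumours. The 2 tested smooth muscle and myoepithelial miRNAs, miR-143-3p and miR-145-5p, were both called lower (median -1.97, summed levels 7.89 to 7.92 in pools and 5.70 to 7.52 in tumours). Of 4 fibroblast and mesenchymal miRNAs, 7 epithelial, 5 leukocyte and 2 erythroid miRNAs tested, none was called. Their summed levels in the pools were 9.65 to 10.699, 9.48 to 9.56, 8.22 to 9.76 and 10.27 to 11.11 in the same order, and those of the tumours ran from 7.14 to 12.01, 6.35 to 12.23, 7.08 to 10.61 and 7.45 to 11.75. Each of the 7 epithelial miRNAs was well above background on some array of every group. The lowest epithelial sum, 6.35, is that of all 7 at the floor. The part of these tissues in the miR-10 differences was not tested. In bulk tissue, fewer cells of a type and less RNA per cell cannot be told apart.

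Among the tumours the order of mean levels was the same for both miRNAs, with Trp53 highest, then MetTrp53, then Met. For miR-10a-5p the means were 5.98 ± 0.51 in Trp53 (SD, n = 8), 5.90 ± 0.76 in MetTrp53 (SD, n = 8) and 5.23 ± 1.26 in Met tumours (SD, n = 7). For miR-10b-5p they were 5.64 ± 0.74, 5.33 ± 0.72 and 4.90 ± 1.52 in the same order. No gap between neighbouring tumour genotypes exceeded the larger SD of the pair, and the ranges of all 3 overlapped. The gap from the pools to the Trp53 tumours did exceed it, at 1.16 against an SD of 0.51 for miR-10a-5p and 2.07 against 0.74 for miR-10b-5p.

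Neither member was called between genotypes. Met tumours lay below Trp53 tumours by log2 differences of -0.75 for miR-10a-5p (SE 0.43, 95% confidence interval -1.64 to 0.15, limma adjusted p = 0.295) and -0.74 for miR-10b-5p (SE 0.51, 95% confidence interval -1.79 to 0.32, limma adjusted p = 0.406). In that comparison 10 percent of miRNAs were called. The size depended on the processing: with normexp the differences were -0.26 and -0.24, and for miR-10b-5p, Met against Trp53, the value was -1.51 with summed signals, -0.33 with a floor 2 times higher and -0.0055 with parity as a covariate. Without the spindloid Met tumour 2 the miR-10a-5p difference was -1.09 and passed (limma adjusted p = 0.0483). MetTrp53 minus Met tumours gave 0.67 for miR-10a-5p (95% confidence interval -0.23 to 1.57) and 0.43 for miR-10b-5p (95% confidence interval -0.63 to 1.49), with limma adjusted p-values of 0.434 and 0.686. Normexp gave 0.20 and 0.066 here, and summed signals gave 1.15 for miR-10b-5p. MetTrp53 minus Trp53 tumours gave -0.08 (95% confidence interval -0.95 to 0.79) and -0.31 (95% confidence interval -1.33 to 0.71), with limma adjusted p-values of 0.982 and 0.925. In these last comparisons limma called 0 miRNAs, although 61 and 23 had an unadjusted p under 0.05. The F-test over the 3 genotypes gave limma adjusted p-values of 0.465 and 0.625, with 5.78 percent of miRNAs called. Except for miR-10a-5p between MetTrp53 and Trp53 tumours, each interval reaches past a doubling in one direction.

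**Figure D2:**
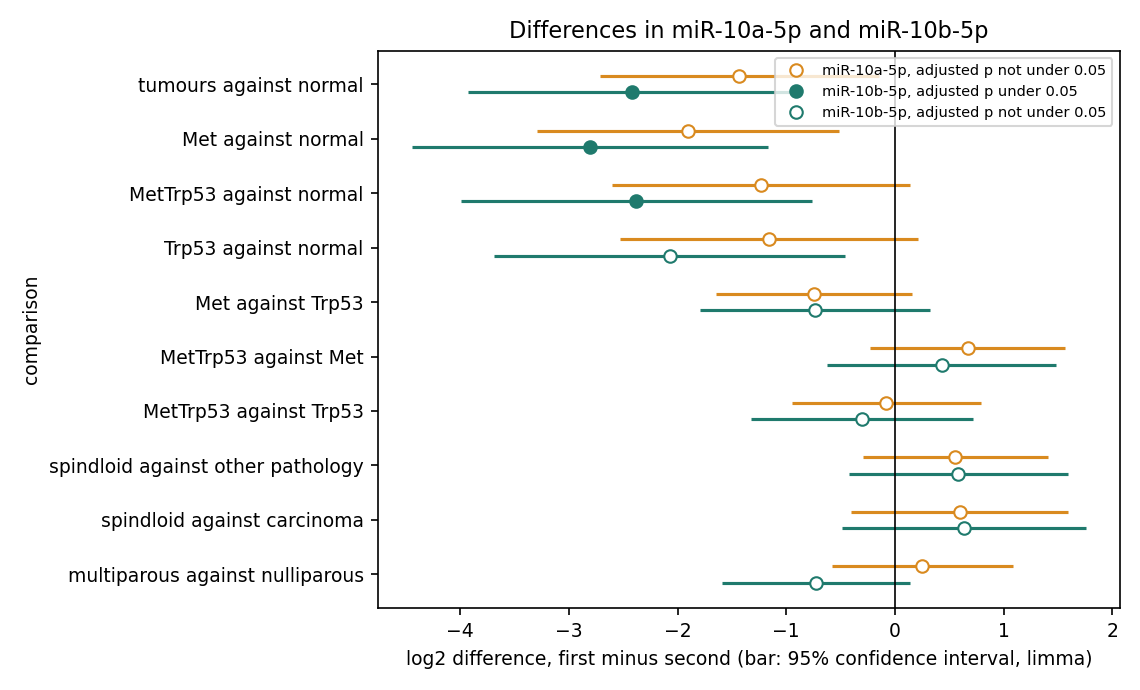
Log2 differences, first group minus second, for miR-10a-5p (orange) and miR-10b-5p (green), with 95% confidence intervals from limma. Filled points have an adjusted p under 0.05: these are miR-10b-5p in tumours, Met tumours and MetTrp53 tumours against normal.

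Both miRNAs varied widely from tumour to tumour. The SD over the 23 tumours was 0.90 for miR-10a-5p and 1.03 for miR-10b-5p, against a median of 0.52 over the 330 miRNAs that passed the filter, of which 58 and 47 had a larger SD. Met tumours spanned the widest range, 3.25 log2 units for miR-10a-5p and 3.48 for miR-10b-5p.

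By pathology the lowest mean levels were those of the 3 solid nodular carcinomas, all of them Met tumours. Their miR-10b-5p levels were 3.54, 3.54 and 4.18, and their miR-10a-5p levels were 4.39, 4.06 and 5.11. The other 4 Met tumours had a mean miR-10b-5p level of 5.77 ± 1.48 (SD), and 1 of them, an adenocarcinoma (Met tumour 7), lay within the range of the solid nodular carcinomas for both miRNAs. The single scirrhous adenocarcinoma, also a Met tumour, had the highest miR-10b-5p level of any tumour, 7.01, with 6.59 for miR-10a-5p. The single adenosquamous tumour stood at 5.29 and 5.08, in the same order.

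The 7 spindloid tumours, a spindle-celled class present in all 3 genotypes, had miR-10a-5p levels from 5.18 through a median of 6.17 to 7.31. Their miR-10b-5p levels ran from 4.75 through a median of 5.61 to 6.88. The 15 tumours of other stated pathology ran from 4.06 through 5.50 to 7.02 for miR-10a-5p and from 3.54 through 5.24 to 7.01 for miR-10b-5p, so the classes overlapped. With genotype as a covariate, spindloid tumours were 0.56 higher for miR-10a-5p (95% confidence interval -0.29 to 1.41, limma adjusted p = 0.663) and 0.58 higher for miR-10b-5p (95% confidence interval -0.43 to 1.59, limma adjusted p = 0.684). In this comparison limma called 0 percent of miRNAs, and 41 had an unadjusted p under 0.05. Against carcinomas alone, with intermediate tumours left out, the differences were 0.60 and 0.64 (limma adjusted p = 0.618 and 0.663), with 4.95 percent of miRNAs called. Without Met tumour 2, the only spindloid tumour of its genotype, the differences from all other pathology were 0.11 and 0.17, and with normexp they were 0.18 and 0.13.

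**Figure D3:**
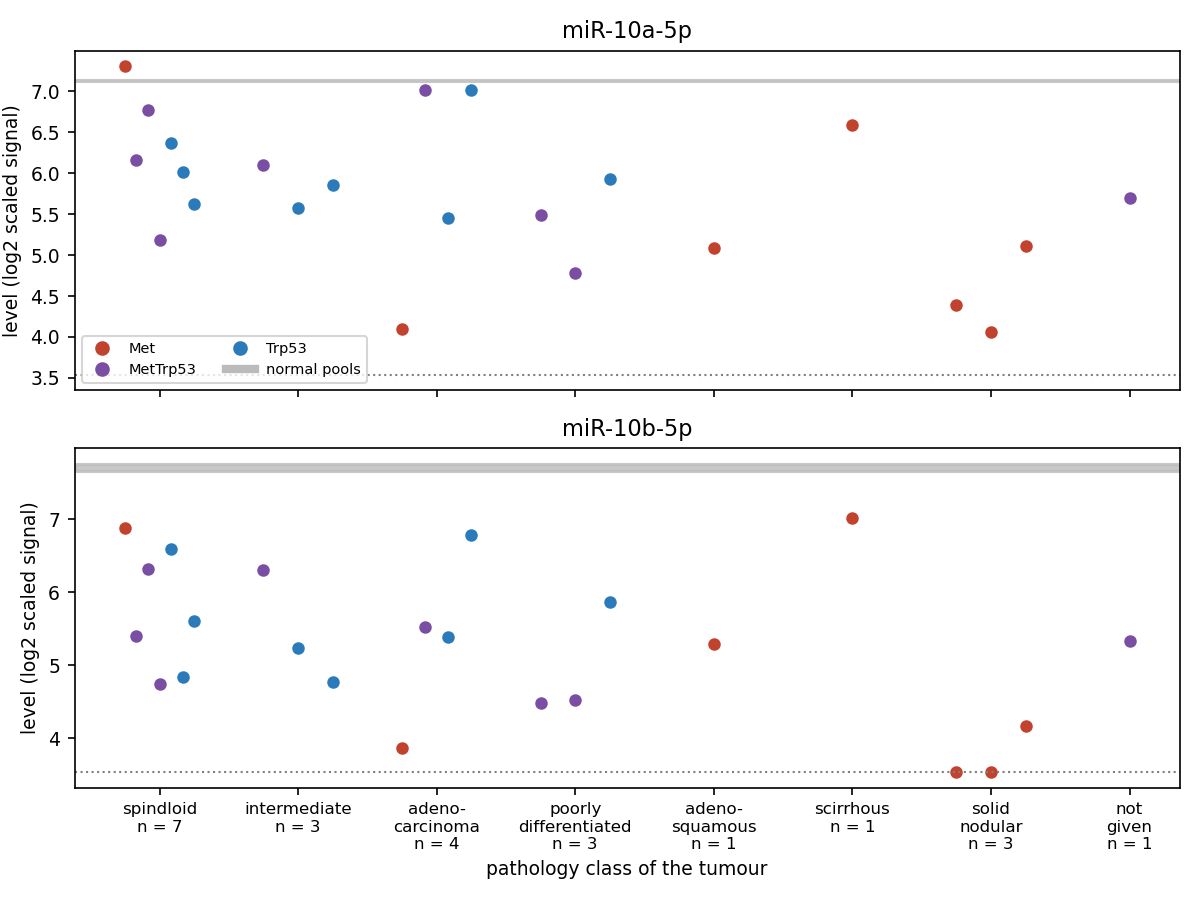
Levels of miR-10a-5p (top) and miR-10b-5p (bottom) in each tumour, as log2 scaled signal, by pathology class. Colours give the genotype, the grey band spans the 2 normal pools and the dotted line is the floor; the 3 solid nodular carcinomas hold the lowest mean level of both miRNAs.

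Parity could be compared only among tumours with the floxed Trp53 allele, since no Met tumour is labelled nulliparous. Levels of miR-10a-5p were 5.50 to 7.01 in 4 multiparous tumours and 4.78 to 6.77 in 9 nulliparous ones (difference 0.25, 95% confidence interval -0.58 to 1.08, limma adjusted p = 0.795). Levels of miR-10b-5p were 4.49 to 5.52 and 4.53 to 6.59 (difference -0.73, 95% confidence interval -1.59 to 0.14, limma adjusted p = 0.778). In this comparison limma called 0 percent of miRNAs, and 16 had an unadjusted p under 0.05. Without MetTrp53 tumour 1 the miR-10a-5p difference turned to -0.13.

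Relative to miR-10a-5p, miR-10b-5p stood lower in tumours than in pools, but the difference did not pass after adjustment. The log2 level of miR-10b-5p minus that of miR-10a-5p was 0.52 in pool 1 and 0.63 in pool 2. In the tumours it ran from -1.49 through a median of -0.37 to 0.43, below both pools in 23 of 23. The mean was -0.42 in tumours and 0.57 in pools, a difference of -0.99. The two-sided exact permutation test over 300 arrangements gave p = 0.01. Adjusted over the 5 comparisons of this measure the exact p was 0.05, which is not under the threshold. It passed without any one of Met tumours 4 and 5, MetTrp53 tumours 1 and 6 and Trp53 tumour 1, with the lowest adjusted exact p, 0.0181, without MetTrp53 tumour 1. Without any other single array it did not pass. These arrays include either pool, where too few arrangements remain for the test to pass after adjustment. Within slides 1 and 3 the difference was -1.06 and -1.02. The difference of the means was larger than the SD between tumours (0.50). Since each miRNA has its own probes, the measure shows unequal change and not which miRNA is the more abundant.

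Between tumour groups no difference in this measure passed. Its mean was -0.33 in Met, -0.57 in MetTrp53 and -0.34 in Trp53 tumours, with SDs of 0.51 in each. Both miR-10b-5p probes were at the floor in Met tumours 1 and 3, and the dimmer one in Met tumours 6 and 7. No tumour of another genotype had a miR-10b-5p probe at the floor. The true Met mean may therefore be lower than measured, which limits the comparisons with Met tumours. The exact permutation p-values, adjusted over the 5 comparisons, were 0.968 for Met against Trp53, 0.640 for MetTrp53 against Met, 0.640 for MetTrp53 against Trp53 and 0.968 for spindloid against other pathology. These p-values do not show that the groups are alike.

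**Figure D4:**
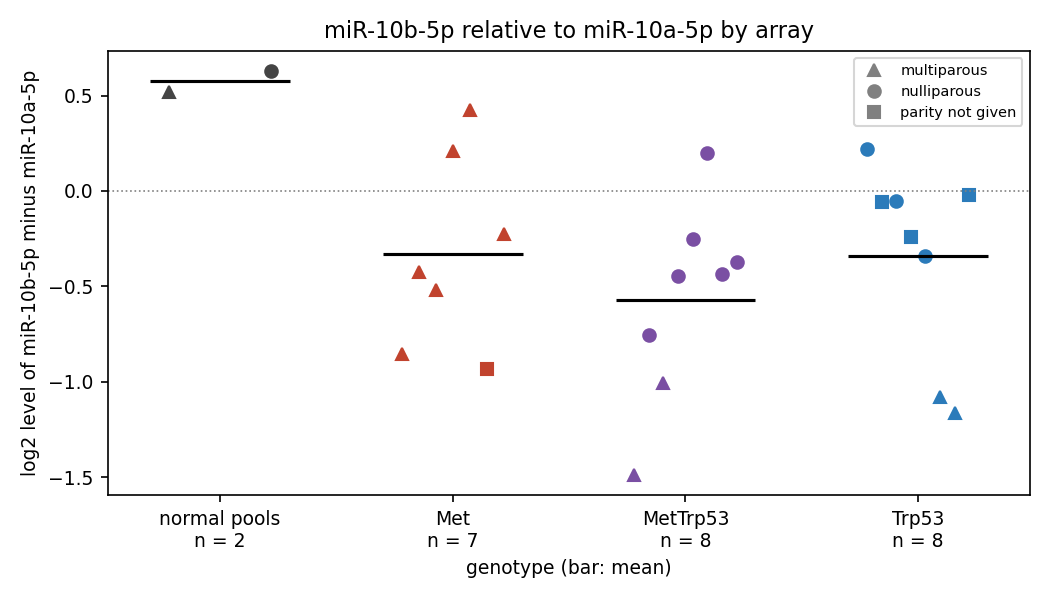
Log2 level of miR-10b-5p minus that of miR-10a-5p on each array, by genotype, with marker shape for parity and a bar at each group's mean. Met tumours 1 and 3 had miR-10b-5p at the floor, so their true values may be lower than shown. The pools lie at 0.52 and 0.63, above all 23 tumours, of which the highest is 0.43; among MetTrp53 and Trp53 tumours the 4 multiparous ones are the lowest 4.

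Across tumours the 2 miRNAs went up and down together. Over 23 tumours Pearson's r was 0.88 and Spearman's rho 0.87, each with a permutation p of 1e-05, the smallest that 100000 resamples can give. Within Met tumours r was 0.95 (rho 0.86, exact p = 0.00476 and 0.0167), within MetTrp53 tumours 0.76 (rho 0.81, exact p = 0.0288 and 0.0218) and within Trp53 tumours 0.73 (rho 0.52, exact p = 0.0360 and 0.197). Adjusted over these 4 sets, the permutation p-values for r were at most 0.0360, while that for rho in Trp53 tumours stayed at 0.197. The p-values came from resampling over all 23 tumours and were exact within genotypes. Without Met tumours 2 and 3, the farthest from the median of miR-10a-5p, r was 0.83, and with slide means removed it was 0.87. The points share the array's scaling, and the sequences share 22 of 23 bases. The part of binding to each other's probes in this correlation was not tested.

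The miRNA most like each member over the 23 tumours, by Pearson's r among 324 miRNAs that varied, was miR-126-3p, which is known as a miRNA of endothelial cells. Its r was 0.91 with miR-10a-5p and 0.88 with miR-10b-5p. With miR-10b-5p it was 0.97 within Met, 0.91 within MetTrp53 and 0.51 within Trp53 tumours, and with miR-10a-5p 0.97, 0.75 and 0.88. The level of miR-126-3p was 10.67 and 10.98 in the pools, and its mean was 9.53 in Trp53, 9.25 in MetTrp53 and 8.63 in Met tumours, the same order as for both members. After the other member, the next for miR-10a-5p were miR-22-3p (0.86), miR-139-5p (0.80) and miR-223-3p (0.78), the last a miRNA of myeloid cells. For miR-10b-5p they were miR-139-5p (0.83), miR-199a-3p (0.73), which is found in mesenchymal cells, and miR-223-3p (0.71). The likeness to miR-199a-3p did not hold in every genotype, since r was 0.95 in Met, 0.84 in MetTrp53 and -0.28 in Trp53 tumours. That of miR-10b-5p to miR-223-3p was 0.01 in Trp53 tumours. Of the 5 nearest miRNAs of each member 3 were shared.

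Whole marker lists placed these neighbours beside others. All 4 fibroblast and mesenchymal miRNAs had r of 0.71 to 0.77 with miR-10a-5p and of 0.69 to 0.73 with miR-10b-5p. All 7 epithelial miRNAs had negative r, -0.64 to -0.42 with miR-10a-5p and -0.58 to -0.31 with miR-10b-5p. The dim endothelial miR-126-5p had r of 0.31 and 0.34, and the 5 leukocyte miRNAs 0.22 to 0.78 and 0.29 to 0.71. Over all 324 miRNAs the median r was 0.00 for miR-10a-5p and 0.03 for miR-10b-5p, and 12 and 7 miRNAs exceeded 0.7. These are descriptions across tumours that share scaling and genotype, and the part of the tumours' cell makeup in them was not tested.

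**Figure D5:**
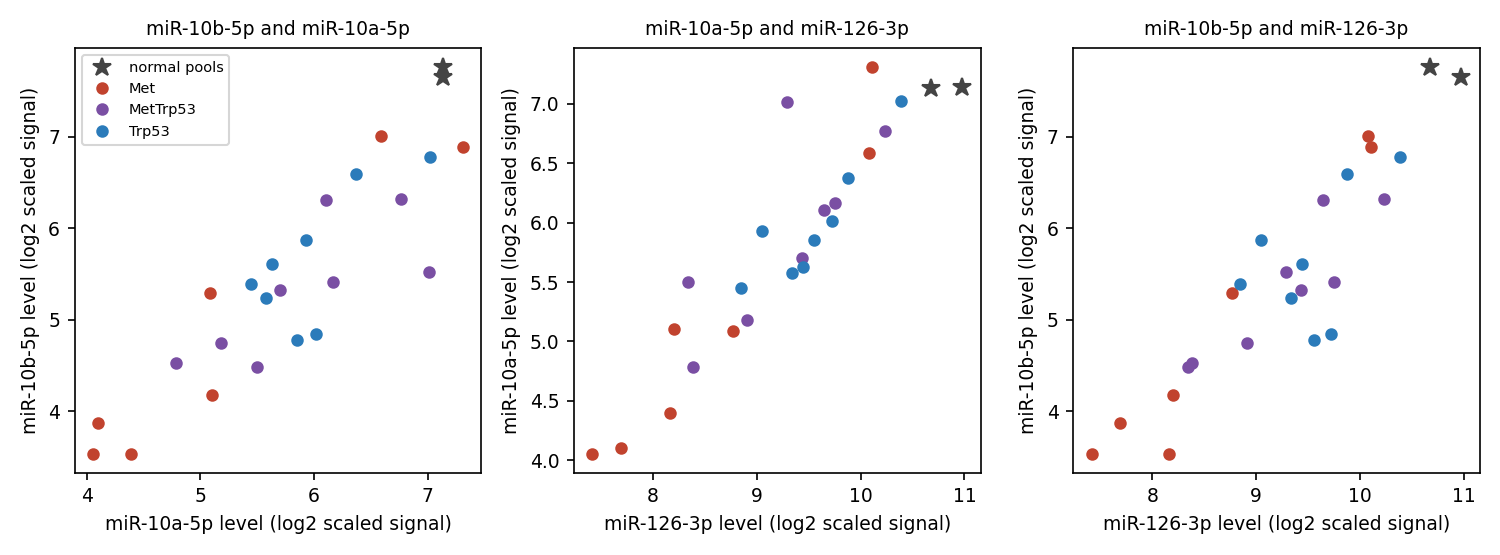
Log2 scaled signal of miR-10b-5p against miR-10a-5p (left), of miR-10a-5p against miR-126-3p (middle) and of miR-10b-5p against miR-126-3p (right), each point an array coloured by genotype and the pools as stars. Over the 23 tumours r is 0.88, 0.91 and 0.88.

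The relatives with the other seed did not all follow the members. Of the 6 miR-99 and miR-100 miRNAs listed, 4 were tested against normal, with a median log2 difference of -0.52 beside 0.14 over all tested. Among the 4, 1 was called higher and 0 lower. Of all 329 tested miRNAs, 16 were called higher and 26 lower. The level of miR-99b-5p rose from 5.23 and 5.46 in the pools to a mean of 7.59 ± 0.54 in Trp53 tumours (SD, n = 8), 6.97 ± 0.36 in MetTrp53 (SD, n = 8) and 6.22 ± 0.62 in Met tumours (SD, n = 7). It was 1.58 higher in tumours than in pools (SE 0.36, limma adjusted p = 0.00326) and higher than in both pools in every tumour. Between Met and Trp53 tumours it differed by -1.37 (SE 0.25, limma adjusted p = 0.00279). The differences of miR-99a-5p and miR-100-5p from normal were -1.47 and -1.23 (limma adjusted p = 0.0811 and 0.227). By genotype, miR-99a-5p was called lower in MetTrp53 tumours (-1.87, limma adjusted p = 0.0326), where 8.21 percent of miRNAs were called as lower. It was not called in Met (-1.37, limma adjusted p = 0.161) or Trp53 tumours (-1.16, limma adjusted p = 0.219). Under each of 8 other ways of scaling or summarising the arrays, these 3 relatives and both members kept their direction against normal. Over tumours, r with the members was 0.17 to 0.32 for miR-10a-5p and 0.10 to 0.31 for miR-10b-5p over miR-99a-5p, miR-99b-5p and miR-100-5p. The r between the members, 0.88, was higher than any of these.

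Of the other miRNAs of the Hox clusters almost nothing was measured. Of 11 listed arms only miR-10a-5p and miR-10b-5p passed the detection filter. Both passed on tumour arrays as well as on both pools, miR-10a-5p being detected on 25 arrays and miR-10b-5p on 24. The opposite arms, miR-10a-3p and miR-10b-3p, were detected on 0 arrays. The level of miR-196a-5p, which shares its seed AGGUAGU with miR-196b-5p, was above the floor on single arrays only, with highest levels of 5.30 in the pools and 6.35 in MetTrp53 tumours. Both miR-196 5p arms were detected on 4 arrays each and miR-615-3p on 2. The remaining 4 arms were detected on 0 arrays.

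Both probes of each member gave the same direction. The brighter and the dimmer probe put tumours below normal by log2 differences of -1.51 and -1.31 for miR-10a-5p, and of -2.58 and -2.23 for miR-10b-5p. Over the tumours r between the probes was 0.996 for miR-10a-5p and 0.951 for miR-10b-5p. Each probe had 20 spots, of which at least 15 were used on every array, and 0 arrays had a saturated probe. The dimmer miR-10b-5p probe was well above background on 20 of 25 arrays and at the floor on 4, which limits its low values.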

How the data were processed

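Total RNA of snap-frozen tissue was labelled with Cy3 and hybridised to 1-colour arrays of mouse miRNAs (per the labels' protocols). The deposited scanner files hold intensities that Agilent Feature Extraction 10.7.3.1 had background-subtracted, per the file headers. The authors' deposited table of log2 values correlated with log2 scanner values at 0.995 to 0.999 per array. Its column medians were 1.72 to 1.91, and its centring is unknown. The submitters' processing notes name RMA without its role.

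For each probe the processed intensities of spots not marked as outliers were averaged. They were divided by the array's 75th percentile over the 221 probes well above background on all arrays, floored at 0.0212 of that percentile, set to log2 and averaged per miRNA. Detection was the scanner software's own. Detection in 7 or more tumours, or in both pools, kept a miRNA. limma 3.58.1 (R 4.3.3) fitted all arrays, and spindloid and parity comparisons used tumours with those labels and genotype as a covariate. Calls have a Benjamini-Hochberg adjusted p under 0.05, and all intervals are 95%. Exact permutation tests were two-sided and enumerated all arrangements (Python 3.11.15), and their p-values were adjusted with scipy 1.17.1. The fitting procedure was tested on simulated data. The normexp alternative used median signals, since the files used here hold no mean signal. Named miRNAs were both members, fixed lists of Hox-cluster miRNAs, relatives and cell type markers, and the 5 most correlated with each member. Members and lists were chosen with earlier results of these data known. Alternatives changed background, scaling, probe summary, floor, filter, batch (slide or scan date), covariates and single arrays.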

Additional observations from a re-analysis of the deposited data

Results flagged for a closer look

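Among the 4 adenocarcinomas, the log2 level of miR-10b-5p minus that of miR-10a-5p was lowest in MetTrp53 tumour 1, at -1.49, far from the nearest of the other 3. Such a gap is met by chance in about 1 in 20 groups of this size. Many groups and measures were screened in this way at both ends, and this was the only gap flagged. The tumour's miR-10a-5p level was 7.01 and its miR-10b-5p level 5.52.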

How the results depend on the processing

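No paired analysis was possible because the replicate numbers come from sample order and pair nothing. Both members kept their direction against normal under every alternative run. Against normal, miR-10b-5p in all tumours lost its call with summed signals (-2.74), slide as a block (-2.47) and scan date as a block (-2.35). In Met tumours it lost it with only the groups compared (-2.81). In MetTrp53 tumours it lost it with summed signals (-2.48), the brightest probe (-2.47), a floor 4 times lower (-2.38), no detection filter (-2.38), slide (-2.36) or scan date (-2.29). In Trp53 tumours it gained a call with normexp (-1.19), the percentile over all probes (-2.31), a floor 2 times higher (-2.03) and only the groups compared (-2.07). For miR-10a-5p, Met against normal gained one with the percentile over all probes (-2.24) and with miRNAs detected on all arrays (-1.90). Signs turned for miR-10b-5p in MetTrp53 against Met with parity as a covariate (-0.24) and for miR-10a-5p in MetTrp53 against Trp53 with slide as a block (0.066).

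The measure miR-10b-5p minus miR-10a-5p, tumours against normal, passed with normexp (-0.62), the brightest probe (-1.07) and tumours of 1 title number averaged (-1.02). Under the remaining settings it did not pass, with adjusted exact p-values of up to 0.383. That for miR-10b-5p minus miR-10a-5p, Met against Trp53, turned to -0.023 with the percentile over all probes, -0.051 with quantile normalisation, -0.25 in the authors' table, -0.70 with summed signals, -0.22 with the brightest probe and -0.34 with a floor 4 times lower. MetTrp53 against Met turned to 0.48 with summed signals, 0.032 with the brightest probe and 0.11 with the lower floor. That for miR-10b-5p minus miR-10a-5p, spindloid against other pathology, turned to -0.047 with normexp, -0.059 with the higher floor and -0.00829 with title numbers averaged. Chosen after seeing the data, the dimmer probe alone gave -0.00137 and leaving out the tumours at the floor -0.00459. The cause of these changes was not tested.

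Leaving out single arrays gave, against normal, -2.54 to -2.34 for miR-10b-5p in all tumours, -3.16 to -2.58 in Met, -2.52 to -2.26 in MetTrp53 and -2.24 to -1.95 in Trp53 tumours. For miR-10a-5p it gave -2.25 to -1.71 in Met against normal, -1.09 to -0.55 in Met against Trp53, -0.24 to 0.082 in MetTrp53 against Trp53 and -0.13 to 0.50 for parity. For the difference of the members it gave -1.05 to -0.94 (tumours against normal), -0.12 to 0.11 (Met against Trp53) and -0.077 to 0.18 (spindloid).

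Counts of called miRNAs moved more. Tumours against normal went from 42 to 26 over miRNAs detected on all arrays, Met against normal from 40 to 26 with normexp and 18 with only the groups compared, MetTrp53 against normal from 48 to 30 under each of normexp and the detected-on-all filter, and Trp53 against normal from 41 to 21 over miRNAs detected on all arrays. Met against Trp53 went from 33 to 21 with normexp, 7 with pathology and 10 with parity as covariates. MetTrp53 against Met went from 0 to between 6 and 16 under 5 settings, with 16 in the authors' table. The F-test went from 19 to 32 in the authors' table and with the lower floor, and to 0 and 1 with pathology and parity. Spindloid against other went from 0 to 6 with normexp, and against carcinoma from 16 to 27 in the authors' table, 30 with no covariate, 6 over miRNAs detected on all arrays, 2 with slide and 0 in Trp53-deleted tumours. Leaving out single arrays gave 15 to 48, 11 to 43, 14 to 51 and 18 to 50 calls for tumours, Met, MetTrp53 and Trp53 against normal, the lowest always without pool 1 (and 26, 22, 29 and 26 without pool 2). Met against Trp53 ran from 18 (without Met tumour 3) to 62 (without Met tumour 2), with 19 or 20 without Met tumour 6 or Trp53 tumours 1 or 5. MetTrp53 against Met reached 41 and the F-test 50 without Met tumour 2 (26 and 35 without MetTrp53 tumour 3), and spindloid against carcinoma 2 without Met tumour 2. Signal limits the low end: miR-10b-5p sat at the floor in 2 tumours, so its differences there are bounds.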

Other observations

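A pattern in the relative level of the 2 miRNAs was noticed in the values and then tested on the same values, so it is a description of these tumours and not an independent result. Among MetTrp53 and Trp53 tumours, the log2 level of miR-10b-5p minus that of miR-10a-5p was -1.19 ± 0.21 in 4 multiparous tumours (SD) and -0.25 ± 0.32 in 9 nulliparous tumours (SD). The highest multiparous value, -1.01, lay below the lowest nulliparous value, -0.76. With labels permuted within genotype the difference was -0.98 (two-sided exact p = 0.00357 over 280 arrangements, 0.0214 after adjustment over 6 comparisons of this measure). Within slides 1, 3 and 4 the difference was -1.71 (1 against 1), -0.62 (1 against 2) and -1.10 (2 against 2). Leaving out single tumours gave -1.10 to -0.90, and the other settings gave -1.01 to -0.39, the smallest with normexp background correction.

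As measured, other multiparous samples did not lie as low. The 6 multiparous Met tumours had a mean of -0.23 and ran from -0.85 to 0.43. Met tumours 1 and 3, at -0.85 and -0.52, had miR-10b-5p at the floor, so their true values may be lower. Whether they lie as low as the multiparous MetTrp53 and Trp53 tumours therefore cannot be told. The multiparous pool stood at 0.52 and the nulliparous pool at 0.63. Whether parity acts differently in Met tumours was not tested, since none is labelled nulliparous.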
